A study of Solanum lycopersicum with 17 samples.

Results

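The genes described here are 5 gene models of tomato (Solanum lycopersicum) known for the response of leaves to wounding and chewing insects, read in floral buds of a male-sterile line and a male-fertile line. They were taken by identifier: Solyc05g051750 (prosystemin), Solyc09g008670 (threonine deaminase, TD), Solyc01g091170 (arginase, ARG2), Solyc12g010020 (leucine aminopeptidase A, LAP-A) and Solyc03g020050 (proteinase inhibitor II, PI-II). They are 5 of the 34727 gene models in the deposited tables. They were chosen by their read counts over line and stage, as genes that stand higher in older buds, so their levels over the stages are given below as a description without a test. In mean level 4 of the 5 stood higher at stage 3 than at stage 1 in both lines. PI-II held 6 reads in all 17 libraries together, so it did not stand higher in older buds at this depth. The names PI-II and prosystemin come with the choice of identifiers and could not be checked against RefSeq, and whether a neighbouring model is the one usually meant by PI-II was not tested.

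Bulk RNA-seq was made from total RNA of floral buds, with 9 samples of the sterile line (ms1035) and 8 of the fertile line (T-1082). Each line was sampled at stages 1, 2 and 3, which the labels number but do not define, in biological replicates. Replicates 1, 2 and 3 were at hand for all groups but fertile stage 1, for which there were replicates 2 and 3. The labels name no wounding, hormone or other treatment, no growth conditions and no allele beyond the line names, and they do not say whether buds were pooled.

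The wound response of tomato leaves works through a relay. Damage releases the peptide systemin from its precursor prosystemin, systemin raises the synthesis of the hormone jasmonate, and jasmonate removes JAZ repressor proteins from the transcription factor MYC2. The proteins made at the end of the relay act in the gut of an insect that eats the leaf: TD and arginase break down the essential amino acids threonine and arginine, and PI-II blocks digestive proteases. LAP-A is an aminopeptidase made late in the same response. Several of these proteins are also known to accumulate in unwounded tomato flowers, where jasmonate has further roles.

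Libraries held 499608 to 817548 assigned reads, so that 1 read was worth 1.22 to 2.00 CPM (the share of the assigned reads of a library in parts per 1e+06). Levels are given in CPM, which compares libraries, or in RPKM, which also divides by the length of the gene model and compares genes. The labels of the lines fitted the reads of 7 tapetum genes (the tapetum is the anther layer that feeds the pollen): their summed level was 765 to 13363 CPM in the fertile libraries and 0 to 11.9 CPM in the sterile ones. In whole buds, fewer cells of a type and less RNA per cell cannot be told apart. The sterile libraries numbered 2 stood apart in these genes: at stage 2 and again at stage 3 the replicate 2 library was the lowest of its group for 4 of the 4 members with enough reads to be tested, against 26.9% and 24.5% of 15579 gene models at those stages. At sterile stage 1 it was the lowest for 1 of the 4, and so was fertile replicate 2 at stages 2 and 3. For 22 further late wound models, described below, replicate 2 was the lowest library for 77.3% at fertile stage 2 and 50.0% at fertile stage 3, against 28.4% and 34.0% of all. Some results that rest on these libraries, mainly those of ARG2 between the lines, are therefore also given without all sterile libraries numbered 2. The members' changes with stage are given with them only.

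Prosystemin, the precursor of the signal peptide, was present in every library and varied least with stage. Its level was 319.6, 387 and 517 CPM in the sterile libraries of stage 1, 759, 372 and 886 CPM at stage 2, and 927, 344 and 709 CPM at stage 3 (replicates 1, 2 and 3). Replicate 2 of the sterile line stayed near the stage 1 level at all stages, and the other replicates stood higher at stages 2 and 3 than any sterile library of stage 1. In the fertile line prosystemin was at 509 and 574 CPM at stage 1 (replicates 2 and 3), at 538, 835 and 583 CPM at stage 2, and at 1077, 861 and 1084 CPM at stage 3 (replicates 1, 2 and 3). All 3 fertile libraries of stage 3 lay above all 5 of the earlier stages. The ratio of mean levels between stages 3 and 1 was 1.62 in sterile and 1.86 in fertile buds, on log2 0.84 (SE 0.38) and 1.01 (SE 0.43) in the fitted model.

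TD, which degrades threonine in the insect gut, had the widest span of the 5. The RefSeq gene at its place in the gene order of chromosome 9 bears the symbol TD2. The sterile libraries of stage 1 held TD at 1071, 104 and 86 CPM (replicates 1, 2 and 3), so replicate 1 stood far above the other two. At stage 2 the sterile libraries stood at 5559, 1069 and 1839 CPM, and at stage 3 at 11718, 3656 and 4363 CPM. Replicate 1 was the highest sterile library for TD at every stage, and sterile replicate 1 of stage 1 reached the level of sterile replicate 2 of stage 2. In the fertile line TD was at 303 and 1061 CPM at stage 1 (replicates 2 and 3). It was at 9296, 7853 and 5895 CPM at stage 2 and at 12750.5, 8685 and 7599 CPM at stage 3 (replicates 1, 2 and 3). The fertile libraries of stages 2 and 3 overlapped each other, and none overlapped stage 1.

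Mean TD levels of stage 3 over stage 1 stood at a ratio of 15.7 in sterile and 14.2 in fertile buds. Stage 2 over stage 1 was 6.72 in sterile and 11.3 in fertile buds, and stage 3 over stage 2 was 2.33 and 1.26. In the fitted model the change from stage 1 to stage 3 was 4.13 on log2 (SE 0.88) in sterile and 3.92 (SE 1.04) in fertile buds. A single stage 1 library weighs on each: without sterile replicate 1 of stage 1 the sterile value was 6.25, and without fertile replicate 3 of stage 1 the fertile value was 5.15.

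ARG2, an arginase that degrades arginine, stood high at stage 3 in both lines and at stage 2 in 2 sterile libraries. RefSeq has a gene of this symbol at its place on chromosome 1. In the sterile line ARG2 was at 54.1, 70.8 and 89.2 CPM at stage 1, at 609, 52.9 and 536 CPM at stage 2, and at 528, 175 and 358 CPM at stage 3 (replicates 1, 2 and 3). Sterile replicates 1 and 3 were thus already high at stage 2, while replicate 2 was still at its stage 1 level. In the fertile line ARG2 was at 54.7 and 75.5 CPM at stage 1 (replicates 2 and 3), at 49.3, 69.7 and 80.4 CPM at stage 2, and at 341, 374 and 360.1 CPM at stage 3. The fertile libraries of stages 1 and 2 shared 1 range, and the 3 of stage 3 lay close together far above it. The ratio of means between stages 2 and 1 was 5.59 in sterile and 1.02 in fertile buds, and between stages 3 and 2 it was 0.886 and 5.39. Over the whole span, stage 3 over stage 1, the ratios were 4.96 and 5.51.

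LAP-A was at 201, 22.3 and 162 CPM in the sterile libraries of stage 1, at 789, 149.5 and 1224 CPM at stage 2, and at 1020.2, 434 and 801 CPM at stage 3 (replicates 1, 2 and 3). The lowest sterile library was replicate 2 at every stage, and at stage 2 it lay within the stage 1 range. In the fertile line LAP-A was at 56.0 and 186 CPM at stage 1 (replicates 2 and 3), at 545, 181 and 408 CPM at stage 2, and at 602, 506 and 343 CPM at stage 3 (replicates 1, 2 and 3). Fertile replicate 2 of stage 2 also lay within the stage 1 range. The ratio of means between stages 3 and 1 was 5.85 in sterile and 3.99 in fertile buds. The fitted log2 change was 2.71 (SE 0.76) and 2.10 (SE 0.87), and the fertile value was 3.26 without fertile replicate 3 of stage 1.

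**Figure D1:**
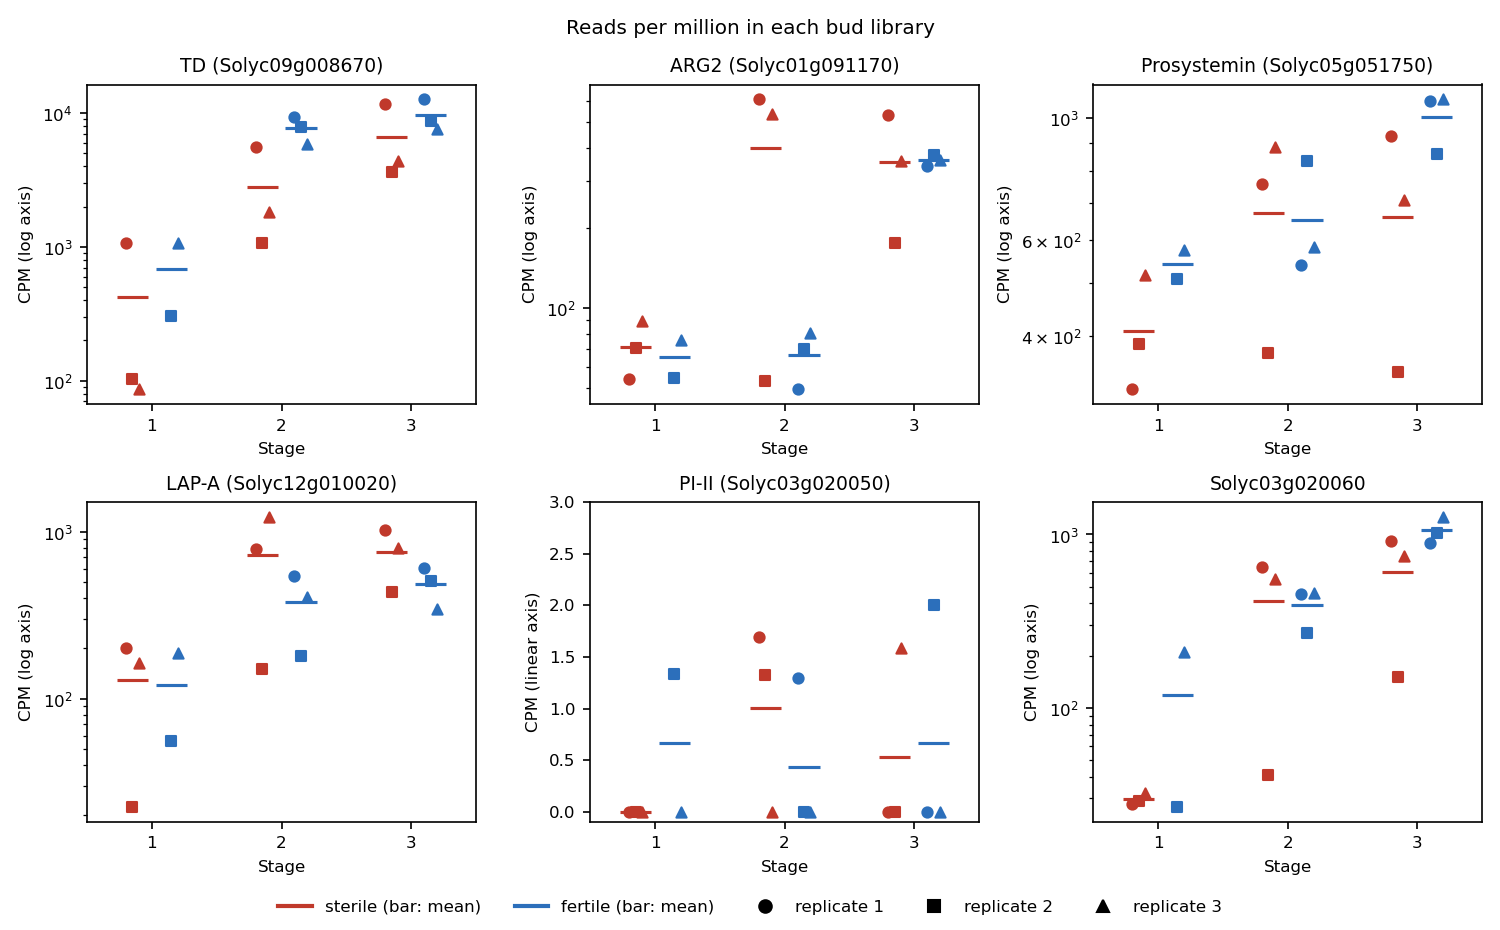
CPM in each library by stage for the 5 genes and for the neighbouring model Solyc03g020060 (points are libraries, bars are group means, sterile in red and fertile in blue, a log axis except for PI-II). TD, LAP-A and prosystemin stand higher at stage 3 than at stage 1 in mean in both lines, ARG2 is high in 2 of 3 sterile libraries but in no fertile library at stage 2, and PI-II never exceeds 1 read.

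Most reads of LAP-A also matched other places. Of its 4687 reads, 927 (19.8%) were assigned uniquely, while all reads of the other 4 members were unique. Solyc00g187050, a model on no numbered chromosome and without a name in the tables used here, held 46069 reads, of which 18.8% were unique, and it had more reads that were not unique than any other gene model. The number of assigned reads per unique read lay between 3.58 and 5.96 for LAP-A and between 3.64 and 6.89 for Solyc00g187050 in the 17 libraries. LAP-A made up 3.48% to 14.8% of the reads of the pair, and 3.88% to 16.4% of its unique reads. The tables do not say which models share reads, and the split of shared reads is uncertain, so the level of LAP-A is too.

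If these models share reads with each other alone, which was not tested, their sum does not depend on the split. The summed level was 1139.5 ± 434 CPM (mean ± SD, n = 3), 5879 ± 4197 (n = 3) and 8451 ± 1545 (n = 3) in sterile buds at stages 1, 2 and 3. In fertile buds it was 1255 ± 742 (n = 2), 4618 ± 2328 (n = 3) and 6011 ± 2746 (n = 3). The libraries of stages 1 and 3 did not overlap in either line. The neighbours of LAP-A in the identifier order differed from it: Solyc12g010040 stood between 262 and 526 CPM in all 17 libraries, and Solyc12g010030 held 86 reads in all. By gene order LAP-A matches the RefSeq symbol LAPA1 and Solyc12g010040 matches LAPA2. The means of Solyc12g010040 were 351, 306 and 335 CPM in sterile and 310, 424 and 456 CPM in fertile buds at stages 1, 2 and 3.

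**Figure D2:**
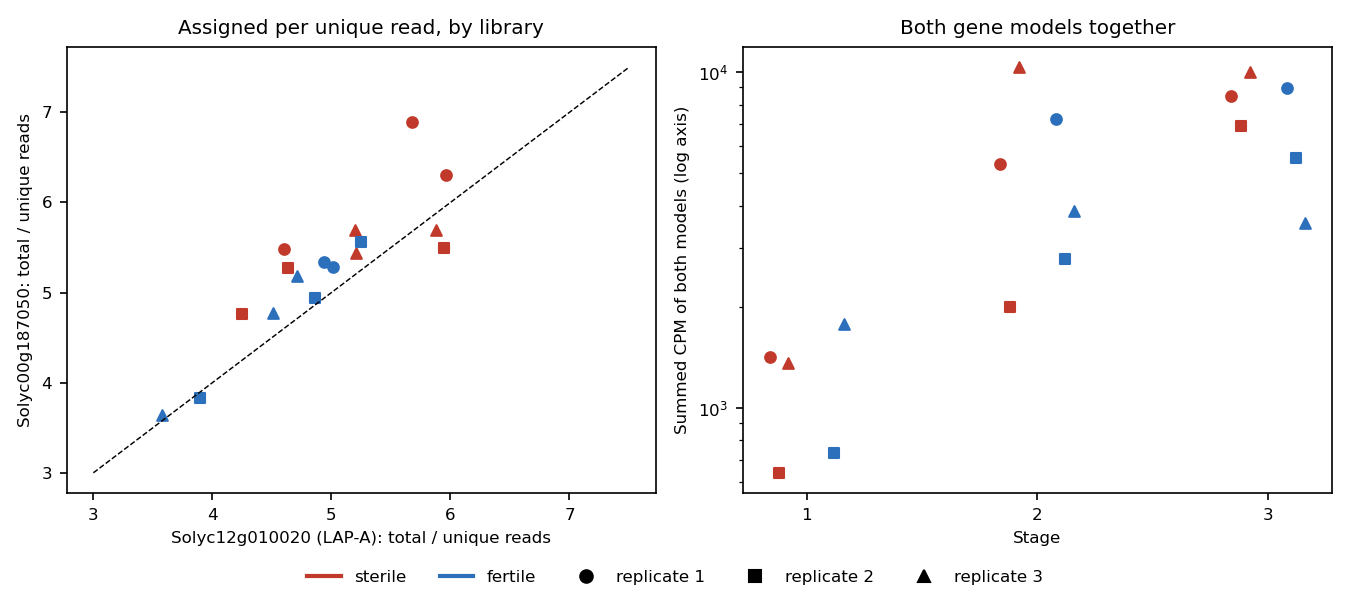
Left, assigned reads per unique read of Solyc00g187050 against LAP-A in each of the 17 libraries (dashed line, equal values); right, the summed CPM of both models by stage on a log axis, each point 1 library (red sterile, blue fertile). The points on the left lie near the line between 3.58 and 6.89, and on the right all libraries of stage 3 lie above all of stage 1.

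PI-II, the inhibitor of digestive proteases, held 1 read in each of 6 libraries and 0 in the other 11. The libraries with a read were sterile replicates 1 and 2 of stage 2, sterile replicate 3 of stage 3, and fertile replicate 2 of stage 1, replicate 1 of stage 2 and replicate 2 of stage 3. The 3 sterile libraries of stage 1 held none, which allows up to 1.54 CPM over that group, for counting error only. Each group was thus under 3 reads, and no fold is given.

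Models next to PI-II were read at higher levels. They carry no name in the tables used here. Solyc03g020060 held 4800 reads, all unique. It was at 27.9, 28.8 and 32.4 CPM in sterile libraries of stage 1, at 652, 41.0 and 554 CPM at stage 2, and at 917, 151 and 750.4 CPM at stage 3 (replicates 1, 2 and 3). In the fertile line it was at 26.7 and 209.8 CPM at stage 1 (replicates 2 and 3), at 451, 269 and 462 CPM at stage 2 and at 895, 1023 and 1262 CPM at stage 3. Sterile replicate 2 of stage 2 was again near the stage 1 level. Solyc03g020080 held 1548 unique reads, with mean ratios of stage 3 over stage 1 of 15.7 in sterile and 11.4 in fertile buds. Solyc03g020040 lay lower: it was at 49.8 ± 16.4 CPM (n = 3) at stage 1 and 49.3 ± 29.1 (n = 3) at stage 3 in sterile buds, and at 59.7 ± 15.5 (n = 2) and 17.3 ± 4.85 (n = 3) in fertile buds. Solyc03g020030 and Solyc03g020070 held 10 and 39 reads in all.

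Levels per coding length put TD first among the members at stage 3. The level of LAP-A in this order rests on the uncertain split of its shared reads. In fertile buds TD stood at 5413 ± 1519 RPKM, prosystemin at 1662 ± 209, ARG2 at 353 ± 16.2 and LAP-A at 293 ± 79.4 (mean ± SD, n = 3). The libraries of TD, prosystemin and ARG2 did not overlap in that order, but those of ARG2 (336 to 368 RPKM) and LAP-A (207 to 364 RPKM) did. In sterile buds of stage 3 TD was at 3679 ± 2497 RPKM, prosystemin at 1089 ± 486, LAP-A at 455 ± 179 and ARG2 at 348 ± 174 (n = 3). There prosystemin (568 to 1529 RPKM) overlapped LAP-A (262 to 617 RPKM), and LAP-A overlapped ARG2 (172 to 519.6 RPKM).

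The genes were chosen for their course over the stages, but their levels in both lines were in view, so the p-values between the lines are not independent of that choice. The lines were compared at each stage with edgeR over 13568 genes, of which 4 are members. PI-II had too few reads to be tested. At stage 2 1 of the 4 was called, ARG2, and edgeR called 2.83% of all tested genes there, 0.604% higher and 2.23% lower in sterile buds. ARG2 stood at 399 ± 302 CPM in sterile and 66.5 ± 15.8 CPM in fertile buds of stage 2 (mean ± SD, n = 3 each). On log2 the lines differed by 2.58 (SE 0.61, edgeR adjusted p = 0.0283). It was higher than every fertile library in 2 of the 3 sterile libraries, and the third overlapped the fertile range. Without the sterile libraries numbered 2 the difference was 3.11 (edgeR adjusted p = 0.000532). Those libraries were singled out for being low in these genes, so a larger difference follows from the choice and adds no support. When stage 2 lost sterile replicate 1 or 3, ARG2 no longer passed (edgeR adjusted p = 0.124 and 0.0849), nor did it when fertile replicate 1, 2 or 3 of that stage was left out (0.116, 0.102 and 0.0539). At stages 1 and 3 the lines overlapped in ARG2, with log2 differences of 0.09 (95% interval -1.44 to 1.61) and -0.03 (-1.28 to 1.22).

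Whether the line difference of ARG2 depends on stage was tested over all 3 stages at once. No gene was called by edgeR (0% of 13568), and DESeq2 called 9. In edgeR 365 genes had an unadjusted p under 0.05, a smaller share than 0.05 of those tested. ARG2 had an unadjusted p of 0.0109 in edgeR, which did not pass over all genes (adjusted p = 1.00). TD, prosystemin and LAP-A had unadjusted p of 0.693, 0.446 and 0.700 in the same edgeR test (adjusted p = 1.00 each). Without the sterile libraries numbered 2 the adjusted p of ARG2 was 0.215. Averaged over the stages, ARG2 was 0.88 higher on log2 in sterile buds (SE 0.36, edgeR adjusted p = 0.147), where edgeR called 9.74% of tested genes, 3.49% higher and 6.25% lower. This average passed without all sterile libraries numbered 2 (1.18, edgeR adjusted p = 0.00303) and without sterile replicate 2 of stage 2 alone (1.06, edgeR adjusted p = 0.00701). Both leave out a sterile library seen to be low in ARG2, so a larger difference follows from the choice and adds no support.

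**Figure D3:**
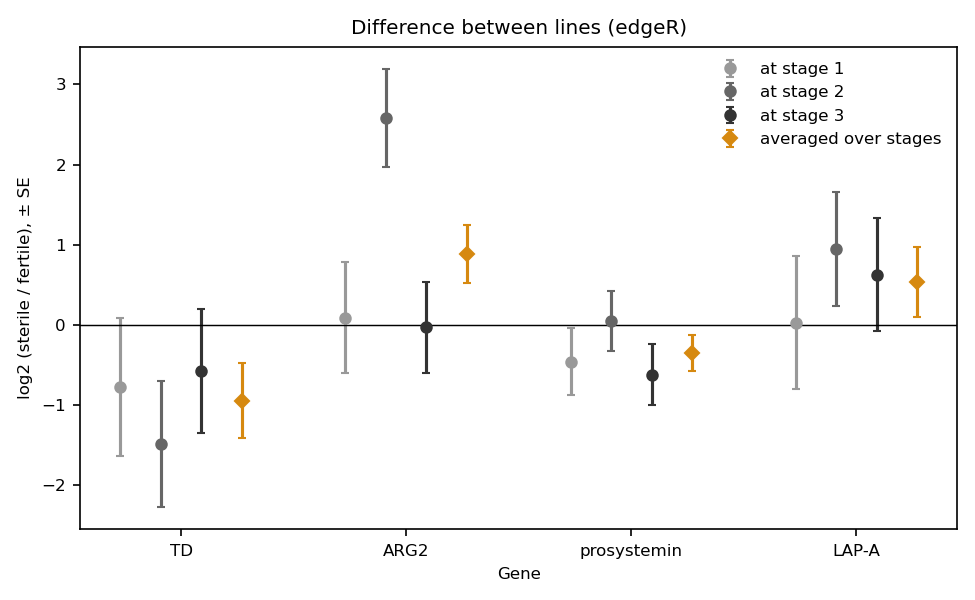
Log2 difference of sterile over fertile buds for the 4 tested genes at each stage (grey to black) and averaged over stages (orange), points are edgeR estimates and bars ± SE. The ARG2 value of 2.58 at stage 2 is the single one that passed, TD lies below 0 at each stage, and LAP-A lies above 0 at stages 2 and 3.

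TD stood lower in sterile buds in mean at each stage and did not pass in the fit without a replicate block. With the block TD passed at stage 2 and averaged over stages (edgeR adjusted p = 0.0362 and 0.00363), and the values here are those without it. At stage 2 it was at 2822 ± 2401 CPM in sterile and 7681 ± 1707 CPM in fertile buds (n = 3 each). On log2 this was -1.49 (SE 0.79, edgeR adjusted p = 0.404), with a 95% interval of -3.23 to 0.25. The 3 sterile libraries all lay below the 3 fertile ones there, which was so for 1 of the 4 members, TD, and for 8.65% of all tested genes at that stage. At stages 1 and 3 the lines overlapped, with differences of -0.78 (SE 0.87) and -0.57 (SE 0.78). Averaged over stages the difference was -0.95 (SE 0.47, edgeR adjusted p = 0.235). It passed without sterile replicate 1 of stage 1, the library with 1071 CPM (-1.65, edgeR adjusted p = 0.00899). That library was the highest of its group for TD, so a lower sterile level without it follows by construction and adds no support.

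Prosystemin and LAP-A did not pass at any stage or on average. Prosystemin differed by -0.46 (95% interval -1.38 to 0.46), 0.04 (-0.78 to 0.87) and -0.62 (-1.45 to 0.20) on log2 at stages 1, 2 and 3. Its sign at stage 2 turned with the setting. LAP-A differed by 0.02 (-1.80 to 1.85), 0.95 (-0.62 to 2.52) and 0.63 (-0.93 to 2.19). At stages 1 and 3 none of the 4 members was called, where edgeR called 1.16% (0.0737% higher, 1.09% lower) and 0.737% (0.17% higher, 0.568% lower) of tested genes.

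Within a group the members varied together in part. The deviations of log2 CPM from the group mean were correlated over the 17 libraries for ARG2 and prosystemin at r = 0.83, and for the other 5 pairs at r = 0.18 to 0.59. These are descriptions: the values share libraries, and 6 group means were removed. In sterile replicate 2 of stage 2, ARG2 lay 2.28 below its group mean on log2, LAP-A 1.81, TD 1.05 and prosystemin 0.76. The members parted in sterile replicate 1 of stage 1, where TD lay 2.33 and LAP-A 1.15 above the group mean while ARG2 and prosystemin lay at -0.36 and -0.32.

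**Figure D4:**
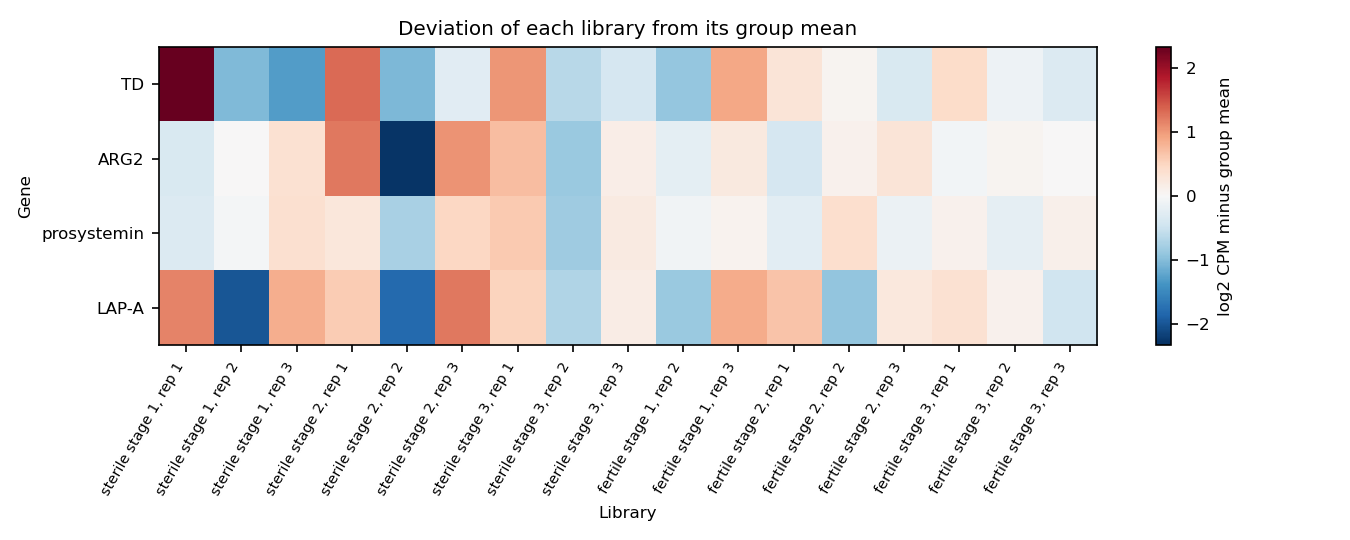
Log2 CPM of each of the 4 genes in each library minus the mean of its group (red above, blue below; rows are genes, columns the 17 libraries). Sterile replicate 2 of stages 2 and 3 is below the mean in all 4 rows, and the TD value of 2.33 in sterile replicate 1 of stage 1 has no counterpart in ARG2 or prosystemin.

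A wider list of late wound and anti-herbivore models, made of the neighbours and relatives of these genes and of further proteinase inhibitor and polyphenol oxidase models, was measured beside them. Of 27 listed models 25 were in the tables and 22 were tested, and none is a member. This list, like those below, was chosen with earlier results of these data known. It also holds relatives of genes chosen for standing higher in older buds. Its counts and p-values with stage are therefore not independent of that choice. In sterile buds 8 of the 22 rose from stage 1 to stage 3 and 0 fell, where edgeR called 2.06% of all tested genes, 1.43% rising and 0.634% falling. In fertile buds 1 of 22 rose and 0 fell, where edgeR called 6.31%, 3.45% rising and 2.86% falling. The median log2 change of the 22 was 2.88 in sterile and 2.57 in fertile buds, against 0.02 and -0.05 over all tested genes. None of the 22 was called in the interaction test over all 3 stages. There edgeR called 0% of all tested genes, so this shows nothing particular to the list. These counts rest on single libraries. The sterile count was 0 without replicate 1, 2 or 3 of stage 1 or replicate 1 of stage 3, 4 without replicate 3 of stage 3, 13 without replicate 2 of stage 2, and 5 without fertile replicate 3 of stage 3. With 1 library left out at a time, the fertile count ranged from 0 to 5, the highest without sterile replicate 2 of stage 2 or 3. Without all sterile libraries numbered 2 it was 8 in each line. With no filter on low counts 13 rose in each line, and with DESeq2 11 rose in sterile and 8 in fertile buds.

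Among the 8, Solyc03g098790 stood at 555 ± 80.4 CPM in sterile stage 1 and 5455 ± 2349 in sterile stage 3 (n = 3 each), a log2 change of 3.46 (SE 0.65, edgeR adjusted p = 0.0158). Solyc03g020060, described above, changed by 4.51 (SE 0.91, edgeR adjusted p = 0.0204). Solyc09g089510 went from 18.3 ± 9.48 to 1441 ± 1181 CPM, a log2 change of 6.46 (SE 1.37, edgeR adjusted p = 0.0253). Solyc03g098760 was called in both lines with these settings. It went from 42.3 ± 25.5 to 2012 ± 1290 CPM in sterile buds (5.75, SE 1.24, edgeR adjusted p = 0.0262) and from 28.9 ± 35.2 (n = 2) to 872 ± 172 CPM in fertile buds (5.06, SE 1.47, edgeR adjusted p = 0.0486). Its fertile call was lost in 14 of 25 alternatives (edgeR adjusted p up to 0.253) and its sterile call in 5 (up to 0.179). None of these 4 has a name in the tables used here.

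**Figure D5:**
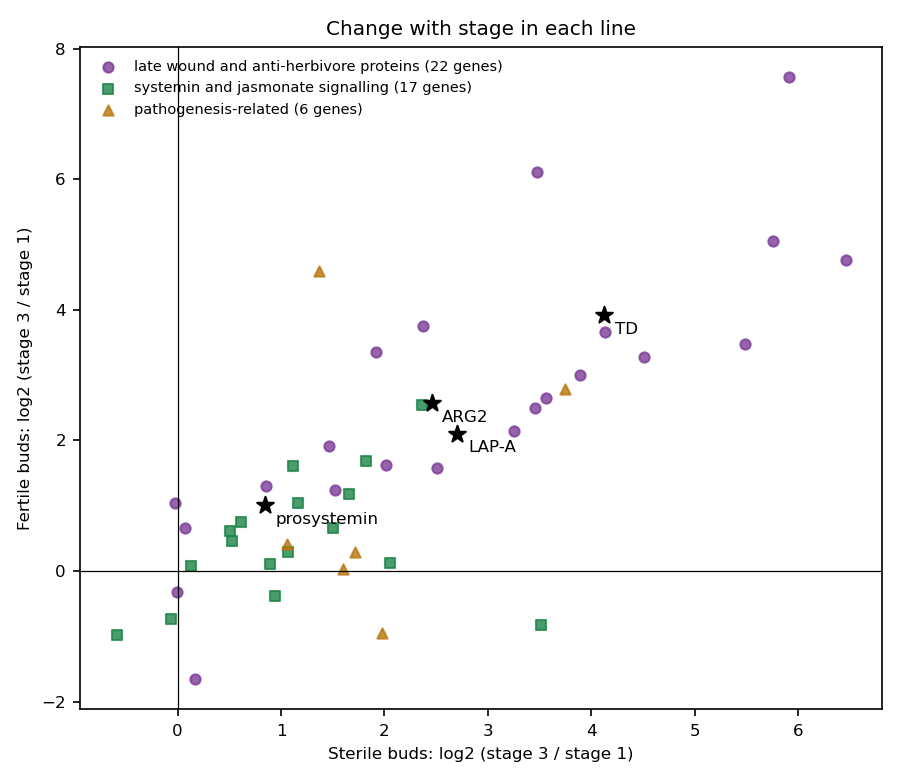
Fitted log2 change from stage 1 to stage 3 in sterile (x) and fertile (y) buds for the tested genes of 3 lists and for the 4 members (stars). Most late wound models (purple) lie above 0 on both axes, with medians of 2.88 and 2.57.

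At stage 2, 2 of the 22 late wound models were higher in sterile buds and 0 lower, with 0.604% of all tested genes called higher. Both are polyphenol oxidase genes, whose enzymes oxidise phenolics when tissue is crushed. Solyc08g074680, which matches in gene order a RefSeq gene with the alias PPO-A, was at 1848 ± 1237 CPM in sterile and 347 ± 75.0 CPM in fertile buds (n = 3 each), or 2.43 higher on log2 (SE 0.46, edgeR adjusted p = 0.00674). Its sterile libraries stood at 1770.4, 651 and 3121 CPM and its fertile ones at 415, 267 and 359 CPM (replicates 1, 2 and 3), so the lines did not overlap. Solyc08g074620, which matches a RefSeq gene with the alias PPO, was at 1188 ± 27.0 CPM against 372 ± 157 (1.63, SE 0.38, edgeR adjusted p = 0.0265). The call of Solyc08g074680 held without any single library but not without all libraries numbered 3 (edgeR adjusted p = 0.0772) or with only the compared libraries in the fit (0.0510), and that of Solyc08g074620 did not hold without sterile replicate 1, 2 or 3 of stage 2 (edgeR adjusted p = 0.0726, 0.0609 and 0.0592) or fertile replicate 2 of that stage (0.110). It was also lost without all libraries numbered 3 (0.107), without all sterile libraries numbered 2 (0.0971) and with only the compared libraries (0.0558). Averaged over the stages both were higher in sterile buds (1.39, SE 0.27, edgeR adjusted p = 0.00322, and 1.25, SE 0.23, edgeR adjusted p = 0.00203). On this average 2 of the 22 were called higher and 1 lower, against 3.49% and 6.25% of all tested genes. The second arginase model, Solyc01g091160 (ARG1 in RefSeq by gene order), went the other way on average (-1.09, SE 0.23, edgeR adjusted p = 0.0057), with 12.2 ± 8.77 CPM in sterile and 31.6 ± 7.67 CPM in fertile buds at stage 2.

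Of 20 listed systemin and jasmonate signalling models 17 were tested. The list mixes genes of jasmonate synthesis and perception with JAZ repressors, so a count over it does not say whether signalling rises. From stage 1 to stage 3, 3 rose in each line and 0 fell, the same 3 models, where 1.43% of all tested genes rose in sterile and 3.45% in fertile buds. The median log2 change over the 17 was 1.07 in sterile and 0.46 in fertile buds, against 0.02 and -0.05 over all tested genes. The 3 that rose were Solyc12g049400 (2.36 in sterile, 2.55 in fertile buds), Solyc01g005440 (1.83 and 1.68) and Solyc11g011030 (1.65 and 1.18), with edgeR adjusted p between 0.014 and 0.0452. They bear no symbol in the tables used here, and their place in the relay was not tested. No listed gene with a RefSeq symbol was called with stage in either line with these settings. Solyc12g049400 was at 38.4, 24.9 and 35.7 CPM in sterile libraries of stage 1, at 121, 33.1 and 168 CPM at stage 2 and at 209, 63.7 and 181 CPM at stage 3 (replicates 1, 2 and 3), so its replicate 2 libraries of stages 2 and 3 were low as those of the members were. No gene of the list was called between the lines at any stage. At stages 1, 2 and 3 edgeR called 1.16%, 2.83% and 0.737% of all tested genes, so 0 of 17 is near the share. The count of rising models in sterile buds was 0 without replicate 2 or 3 of stage 1 or replicate 1 of stage 3. It was 1 without replicate 1 of stage 1. In fertile buds it was 0 without replicate 3 of stage 1 or of stage 3, 1 without replicate 2 of stage 1 or of stage 3, and 2 without replicate 1 of stage 2 or 3 or without sterile replicate 1, 2 or 3 of stage 1 or replicate 1 of stage 2.

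The most abundant of the listed genes with a RefSeq symbol were loxD (Solyc03g122340), a lipoxygenase at the entry to jasmonate synthesis, and AOC (Solyc02g085730), the allene oxide cyclase. loxD was at 307, 237 and 261 CPM in sterile stage 1 but at 1033 and 198 CPM in fertile stage 1 (replicates 2 and 3). At stage 2 it was at 424, 864 and 174 CPM in the fertile libraries, again highest in replicate 2. The loxD difference at stage 1 was -1.24 (SE 0.61, edgeR adjusted p = 0.526). AOC stood at 430.1 ± 299 CPM in sterile and 201 ± 44.4 CPM in fertile buds of stage 2 (n = 3 each; 1.13, SE 0.46, edgeR adjusted p = 0.227).

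Of the pathogenesis-related genes, which answer microbes more than wounding, 0 of 6 tested were called with stage in either line. There edgeR called 2.06% of all tested genes in sterile and 6.31% in fertile buds, so 0 of 6 is near the share. The median log2 change of the 6 was 1.66 in sterile buds, with 6 above 0, and 0.36 in fertile buds, with 5 above 0. Between the lines at stage 2 NP24-I (Solyc08g080640), an osmotin-type protein gene, was lower in sterile buds, with 0.566 ± 0.98 against 25.8 ± 22.0 CPM (n = 3 each, edgeR adjusted p = 0.0381). The sterile libraries held 1 read in all, and the fertile ones stood at 44.1, 31.8 and 1.44 CPM. That call was lost without any of the 3 sterile libraries of stage 2 or sterile replicate 3 of stage 1, and without fertile replicate 1 or 2 of stage 2 the gene had too few reads to be tested. Averaged over the 3 stages 2 of 6 were higher and 2 lower in sterile buds, against 3.49% and 6.25% of all tested genes.

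Markers of green tissue, 14 models of photosynthesis of which 13 were tested, stand for the green parts of the bud. Their summed level was 8962 to 21752 CPM in sterile stage 1 and 8982 to 26795 CPM in sterile stage 3, and 10129.7 to 10682 and 12091 to 16639 CPM in fertile buds of those stages. None was called with stage or between the lines at any stage, and 1 was higher in sterile buds on average. Of all tested genes edgeR called 2.06% with stage in sterile and 6.31% in fertile buds. Between the lines it called 1.16%, 2.83% and 0.737% at stages 1, 2 and 3, and on average 3.49% higher and 6.25% lower in sterile buds. So few calls among 13 genes do not show steady levels. The median log2 change of the 13 from stage 1 to 3 was 0.08 in sterile and 0.59 in fertile buds. In the sterile line the highest sums were those of replicate 3 at each stage, and their part in the members' levels was not tested. Among 8 reference genes 0 were called with stage or line, against the same shares of all tested genes. Their sums were 3193 to 5874 CPM in the 17 libraries.

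Gene models whose log2 CPM followed a member most closely were sought among the 13528 tested genes whose mean reached 5 CPM, by Pearson's r over the 17 libraries, which share depth and groups. For LAP-A the first was Solyc00g187050 (r = 0.93), whose reads are also mostly not unique, and the next was Solyc03g098760 (r = 0.91). For ARG2 the first were Solyc07g008570 (r = 0.93), Solyc02g069110 (r = 0.92) and Solyc10g084320 (r = 0.91). The means of Solyc10g084320 were 139, 611 and 618 CPM in sterile and 74.1, 67.0 and 353 CPM in fertile buds at stages 1, 2 and 3. For TD they were Solyc07g041920 (r = 0.93), Solyc02g071610 and Solyc08g076970 (both r = 0.91), and for prosystemin Solyc08g074480 (r = 0.88), Solyc06g068520 (r = 0.87) and Solyc01g108020 (r = 0.86).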

How the data were processed

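Per the labels' protocols, a TRIzol extraction preceded the RNA-seq libraries. Per the file headers, each of the 17 deposited tables gives counts of all assigned and of uniquely assigned reads for 34727 gene models, RPKM values, and another column with gene length in bases. The lengths are multiples of 3 for 34726 models, so they are coding lengths. The deposited RPKM values equal those computed from all assigned reads and the library totals (0 differed by more than 1e-06 of their size). The sources used here do not give the aligner, counter, genome build or strandedness. There were 0 columns of other samples. Libraries were grouped by line and stage from the labels.

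The tests used edgeR 4.0.16 (R 4.3.3) on all assigned reads (filterByExpr with the 6 groups, TMM factors of 0.901 to 1.09, 1 quasi-likelihood fit of 17 libraries, 11 residual degrees of freedom, biological coefficient of variation 0.291). Genes with a Benjamini-Hochberg adjusted p under 0.05 over 13568 tested genes were called. At least 97.0% of each library's reads lay in tested genes, and the fit was tested on simulated data. SE is the log2 difference divided by the square root of F. p-values measure only the spread between these samples. Reads without molecular identifiers are not independent molecules, so limits on 0 counts (3 reads over a group) cover counting error only.

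The members and the gene lists were chosen with earlier results of these data known, and the lists were recalled from the tomato literature. No p is given for the members' change with stage. Named genes are the members, up to 4 called genes of each list and comparison with the lowest adjusted p (if none, the 2 highest in mean level) and the 3 genes most like each member, and further genes were named after their values were seen. RefSeq (assembly SLM_r2.1) holds 0 identifiers of the type used in the files, so 27 symbols were matched by chromosome and gene order: 27 of 27 lay on the same chromosome, within 3.24% of its gene order. The tapetum list served as a check of the lines.

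Alternatives were RLE factors, DESeq2 1.42.0, no filter, unique reads, a replicate block, leaving out libraries singly or by number, and only the libraries compared. Leaving out all sterile libraries numbered 2 and summing LAP-A with Solyc00g187050 were chosen after seeing the data.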

Additional observations from a re-analysis of the deposited data

How the results depend on the processing

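Limits: fertile stage 1 has 2 libraries, the groups have at most 3, and 1 library decides many counts. The line differences of the members kept their direction under the alternatives run, except for those named here.

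Counts of called genes moved as follows. Without a filter on low counts they were 425, 891 and 305 at stages 1, 2 and 3, 528 for sterile stage 3 against 1 and 21 for the interaction (158, 384, 100, 280 and 0 as reported). DESeq2 gave 156 at stage 3, 428 for sterile stage 3 against 1 and 9 for the interaction. With only the compared libraries in the fit stage 2 gave 237. Leaving out libraries gave 41 to 221, 131 to 453 and 8 to 129 at stages 1, 2 and 3, 702 to 1409 averaged (1321 as reported), 0 to 1 for the interaction, 18 to 474 for sterile and 28 to 954 for fertile stage 3 against 1 (280 and 856 as reported). The cause was not tested.

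With a replicate block the counts were 293, 732, 221, 679, 1299 and 3 (stages 1 to 3, sterile and fertile stage 3 against 1, interaction). Same-numbered libraries had residual correlations of -0.02 to 0.29, and in no comparison were all above 0.1. Pairs numbered 3 stood at 0.12 to 0.29, those numbered 2 at -0.01 to 0.04 and those numbered 1 at -0.02 to 0.21. In the comparisons with 3 same-numbered pairs, the own number correlated best in 10 of 18 cases, each a choice among 3 libraries. Whether the numbers pair the samples cannot be settled from so few pairs. With the block sterile buds had lower TD at stage 2 (-1.92, edgeR adjusted p = 0.0362) and averaged (-1.54, edgeR adjusted p = 0.00363), both past the threshold. LAP-A at stage 1 was -0.32 and prosystemin at stage 2 -0.073 in that fit.

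ARG2 at stage 2 lay between 2.21 and 3.12, and its call was also lost without all libraries numbered 3 (edgeR adjusted p = 0.174) and with only the compared libraries (0.121). Its average passed without a filter (0.87, edgeR adjusted p = 0.0449). Signs turned for LAP-A at stage 1 (unique reads -0.36, summed with Solyc00g187050 -0.20, leaving out libraries -0.63 to 1.18), prosystemin at stage 2 (no filter -0.0083, leaving out libraries -0.37 to 0.37), TD at stage 1 (-2.90 to 0.90), and ARG2 at stages 1 (-0.16 to 0.38) and 3 (-0.43 to 0.32). None of these was called. The late wound list had 13 rising models in sterile and 13 in fertile buds without a filter (8 and 1 as reported) and with the block, and 11 and 8 with DESeq2.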
